A study of Rattus norvegicus with 16 samples.

Results

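Integrins and laminins were measured in right ventricular wall RNA of male Wistar rats under 3 conditions that the labels name CON, RVF+ and RVF. A gene belonged to the set if its symbol was Itga or Itgb followed by a number or single letter, or Lama, Lamb or Lamc followed by a digit, with 1 probe set per gene (the one with the highest mean). The rule found 32 of the 17245 genes measured, 22 integrin subunits and 10 laminin chains. Itga9, whose probe set is shared with other symbols, and Itgae, Itgb3 and Lamb4 were not analysed here, and Itga2b, the platelet subunit, has a symbol outside the rule. The rule uses symbols and no measured difference.

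The study used 16 Affymetrix arrays, 1 per sample, in 7 CON, 5 RVF+ and 4 RVF samples, and each array carries its condition and its own title number, from CON 1 to CON 7, RVF+ 8 to RVF+ 12 and RVF 13 to RVF 16. All rats weighed 160 to 180 g, and the labels give no age, genotype or allele. The rats had either a sham operation or banding of the pulmonary artery, which narrows the outflow of the right ventricle, and which operation each sample had is not labelled. The design text calls the 7 CON samples controls, and no source used here spells out RVF+ or RVF. No label says that each sample is another animal, and the p-values therefore rest on sample-to-sample spread that could be technical in part or whole.

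Integrins are cell surface receptors made of an alpha and a beta chain that tie the cytoskeleton to the matrix outside the cell or to other cells. Laminins, each made of an alpha, a beta and a gamma chain, are proteins of basement membranes, the thin sheets that surround each heart muscle cell and underlie each vessel. In heart muscle, laminin with the alpha2 chain is held by the alpha7 beta1 integrin and by dystroglycan, while fibroblasts and vessel cells use receptors for fibronectin and other proteins with an RGD (arginine, glycine, aspartate) sequence, and leukocytes carry integrins of the beta2 and beta7 families.

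Most of the called members rose, among them 3 chains that can form 1 laminin and the shared integrin subunit Itgb1, while the muscle laminin receptor subunit Itga7 fell. Between RVF+ and CON, 12 of the 32 members were higher and 5 were lower at a Benjamini-Hochberg adjusted p under 0.05 over all genes in limma. The background was 27.7% of all genes called, 14.1% higher and 13.6% lower, against 37.5% and 15.6% of the members. Between RVF and CON, 8 members were higher and 3 were lower, with a background of 17.1% of all genes called, 8.86% higher and 8.29% lower, against 25.0% and 9.38% of the members. The median log2 difference of the members was 0.10 for RVF+ and 0.16 for RVF, beside -0.012 and -0.009 over all genes. All RVF+ arrays lay above all CON arrays for 9 members and below them for 2, with a background of 6.96% and 7.63% of genes. All RVF arrays lay above all CON arrays for 13 members and below them for 2, with a background of 9.83% and 9.00%. Both comparisons used the same CON arrays, so their values stand side by side and are not independent of each other. Array RVF+ 8 stood apart over all genes, at a root mean square log2 distance of 0.711 from the CON mean, beside 0.326 to 0.448 for the other RVF+ arrays, 0.358 to 0.417 for RVF and 0.157 to 0.212 for CON. Without it the counts were 11 higher and 3 lower for RVF+ and 13 higher and 4 lower for RVF. The calls over all genes were then 2221 higher and 2076 lower for RVF+, beside 2423 and 2348 with it, and 2315 higher and 1932 lower for RVF, beside 1528 and 1429 with it. The count lower in RVF+ was also 3 without CON 3 or RVF+ 9, and the count lower in RVF was 1 without CON 1, CON 2, CON 3, CON 7, RVF 13, RVF 15 or RVF 16. Centring every array on its median gave 10 higher and 8 lower in RVF+, so that 55.6% and not 70.6% of the called members were higher, beside 32.9% and 50.8% of the called genes over all genes, and it moved the median of all genes to -0.106.

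**Figure D1:**
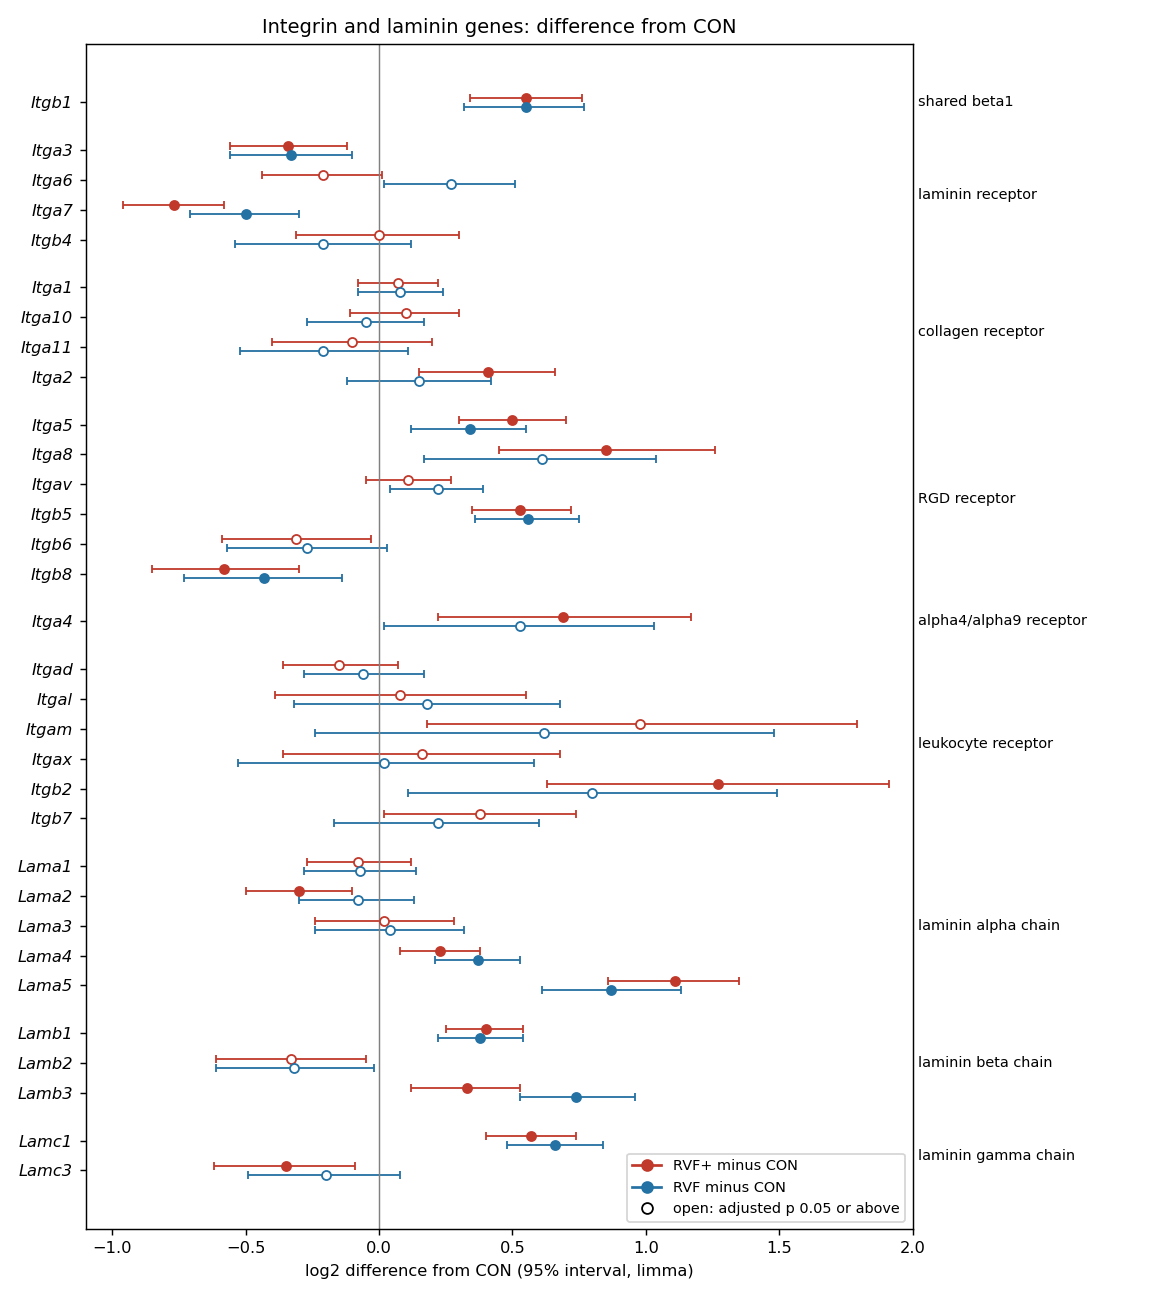
Log2 difference of each of the 32 members, RVF+ minus CON (n = 5 and 7) and RVF minus CON (n = 4 and 7), with 95% intervals from limma, grouped by ligand or chain class. Filled symbols passed an adjusted p of 0.05: 17 members for RVF+ and 11 for RVF, and Itgb2 and Lama5 had the largest differences in RVF+ while Itga7 had the lowest in both.

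Among the laminins, 5 of the 10 chains rose and 2 fell in RVF+, and 5 rose and 0 fell in RVF. Without RVF+ 8, 4 rose and 0 fell in RVF+, and 5 rose and 1 fell in RVF. The largest of these changes was in Lama5, the alpha chain of laminins in mature vessel basement membranes (probe set 10852270). Its log2 intensity ran from 6.40 to 6.65 (median 6.59) in CON, was 7.34, 7.96, 8.09, 7.58 and 7.33 in RVF+ arrays 8 to 12, and was 7.47, 7.39, 7.46 and 7.39 in RVF arrays 13 to 16, the order used throughout. Every RVF+ and RVF array lay above every CON array. The difference was 1.11 ± 0.12 (SE) for RVF+, a 2.16-fold rise (adjusted p = 3.98e-06), and 0.87 ± 0.12 (SE) for RVF, a 1.83-fold rise (adjusted p = 9.35e-05). In whole tissue RNA, more cells of a type and more RNA per cell cannot be told apart, for this and every later value.

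Lamc1 and Lamb1 encode the gamma1 and beta1 chains, which join alpha2, alpha4 or alpha5 in most heart laminins. Lamc1 (probe set 10768668) read 9.68 to 9.90 (median 9.75) in CON, 10.49, 10.41, 10.43, 10.02 and 10.31 in RVF+ and 10.34, 10.49, 10.48 and 10.38 in RVF. The groups did not overlap with CON, and the rise was 1.48-fold in RVF+ (0.57 ± 0.08 (SE), adjusted p = 5.65e-05) and 1.58-fold in RVF (0.66 ± 0.09 (SE), adjusted p = 4.4e-05). Lamb1 (probe set 10884080) read 8.88 to 9.05 (median 8.91) in CON, 9.38, 9.38, 9.43, 9.08 and 9.44 in RVF+ and 9.36, 9.28, 9.30 and 9.34 in RVF. RVF+ 11 was the lowest of the RVF+ arrays and still above CON, and the rise was 1.32-fold in RVF+ (adjusted p = 0.000408) and 1.30-fold in RVF (adjusted p = 0.00169). Lama4, the alpha chain of endothelial and other basement membranes, read 8.61 to 8.77 (median 8.69) in CON, 8.74, 9.00, 8.93, 8.81 and 9.15 in RVF+ and 9.01, 9.12, 9.07 and 9.05 in RVF. The RVF arrays all lay above CON and 1 RVF+ array did not, with differences of 0.23 ± 0.07 (SE) (adjusted p = 0.0224) and 0.37 ± 0.08 (SE) (adjusted p = 0.0028). The RVF+ call for Lama4 was lost without RVF+ 9, without RVF+ 12 and with median centring.

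Lamb3, a beta chain known from epithelial laminin, was dim, with all group means below the median level of all genes (5.57), where a log2 difference from this platform tends to be compressed. It read 3.94 to 4.41 (median 4.32) in CON, 4.88, 4.47, 4.52, 4.57 and 4.55 in RVF+ and 5.23, 4.84, 5.11 and 4.88 in RVF. Neither group overlapped with CON, and the rise was 1.25-fold in RVF+ (adjusted p = 0.018) and 1.68-fold in RVF (adjusted p = 8.4e-05). Without RVF+ 8 the RVF+ difference was 0.26 and did not pass (adjusted p = 0.0534), nor did it with array weights. Of the 7 epithelial and mesothelial markers measured, all were dim, and 0 passed in either comparison in limma, with 1 at an unadjusted p under 0.05 in RVF+ and 0 in RVF.

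The promoters of the genes that moved in both comparisons were read from RefSeq, as the 250 bases before the annotated start in build GRCr8, in the direction of the gene. Of the 11 members called in both comparisons, 10 had a sequence, and 25 of all 32 members matched. The sequences of Lama5, Lamb1 and Lamc1, whose chains can form 1 laminin, and of Itgb1 are shown because these 4 genes rose together, and that of Itgb8 because it fell. Capitals mark matches on either strand to GGGCGG (the GC box bound by Sp1 family factors), CCAAT (the box bound by NF-Y), TATAAA (the box bound by TBP), TGANTCA (the AP-1 site) or GGAATG (the TEAD site), where neighbouring matches may overlap. The windows are chr3:187695975-187696224, minus strand (Lama5), chr6:53562846-53563095, plus strand (Lamb1), chr13:68051987-68052236, minus strand (Lamc1), chr19:73602027-73602276, plus strand (Itgb1) and chr6:146351246-146351495, minus strand (Itgb8).
Lama5: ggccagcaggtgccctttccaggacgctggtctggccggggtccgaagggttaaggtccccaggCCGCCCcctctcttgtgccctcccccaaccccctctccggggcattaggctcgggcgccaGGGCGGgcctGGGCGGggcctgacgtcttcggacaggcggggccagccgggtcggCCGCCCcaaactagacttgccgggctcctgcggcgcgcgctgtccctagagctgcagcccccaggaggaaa
Lamb1: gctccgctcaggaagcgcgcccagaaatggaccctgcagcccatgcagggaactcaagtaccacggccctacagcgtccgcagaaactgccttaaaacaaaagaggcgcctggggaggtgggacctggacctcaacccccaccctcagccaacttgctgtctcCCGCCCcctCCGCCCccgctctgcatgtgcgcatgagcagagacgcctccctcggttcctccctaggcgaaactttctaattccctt
Lamc1: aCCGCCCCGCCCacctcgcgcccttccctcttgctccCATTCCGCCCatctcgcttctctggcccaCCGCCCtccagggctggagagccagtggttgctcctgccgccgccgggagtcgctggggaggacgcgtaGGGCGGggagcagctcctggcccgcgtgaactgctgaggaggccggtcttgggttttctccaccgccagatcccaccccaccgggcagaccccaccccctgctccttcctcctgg
Itgb1: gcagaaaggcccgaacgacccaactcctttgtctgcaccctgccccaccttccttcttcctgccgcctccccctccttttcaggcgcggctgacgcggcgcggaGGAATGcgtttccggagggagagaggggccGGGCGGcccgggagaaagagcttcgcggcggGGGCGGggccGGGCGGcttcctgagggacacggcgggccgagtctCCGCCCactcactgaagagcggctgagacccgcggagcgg
Itgb8: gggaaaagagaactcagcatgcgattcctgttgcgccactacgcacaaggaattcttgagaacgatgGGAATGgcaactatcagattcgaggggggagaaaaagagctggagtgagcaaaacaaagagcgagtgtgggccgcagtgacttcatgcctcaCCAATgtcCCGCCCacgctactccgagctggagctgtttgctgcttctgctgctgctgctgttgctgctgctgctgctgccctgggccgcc
A GC box was matched in 7 of the 10 members and in 30.5% of all 33469 promoter windows of the same length. A TEAD site was matched in 4 of 10, beside 12.1% of all windows, a CCAAT box in 3 (34.0%), a TATA box in 1 (12.9%) and an AP-1 site in 0 (6.34%). The GC content of these 10 windows was 53.2% to 74.4%, beside a median of 51.2% over all windows. The matches describe letters in these windows and are not evidence of binding.

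The other laminin chains were lower in RVF+ or did not pass. Lama2, the alpha chain of the laminin around muscle cells, read 9.68 to 9.86 (median 9.72) in CON, 9.04, 9.31, 9.65, 9.67 and 9.58 in RVF+ and 9.83, 9.56, 9.65 and 9.63 in RVF. RVF+ 8 was the lowest array, and all RVF+ arrays lay below CON while the RVF arrays overlapped with it. The difference was -0.30 ± 0.10 (SE) in RVF+ (adjusted p = 0.0278) and -0.08 ± 0.10 (SE) in RVF (adjusted p = 0.64). The RVF+ call was lost without RVF+ 8 (-0.20, adjusted p = 0.0744), without RVF+ 9 and without CON 3, and a dimmer probe set of the gene gave -0.15 and did not pass (adjusted p = 0.238). Lamc3, a dim gamma chain, read 3.77 to 4.45 (median 3.94) in CON, 3.41, 3.65, 4.19, 3.45 and 3.60 in RVF+ and 3.87, 3.77, 3.73 and 3.88 in RVF, with overlap in both comparisons. Its RVF+ difference of -0.35 ± 0.13 (SE) passed narrowly (adjusted p = 0.0465) and was lost in 18 of 24 settings, among them the removal of any single array but CON 6 or RVF+ 10 (adjusted p 0.00305 to 0.118 over the settings). Lamb2, the beta2 chain of muscle and synaptic basement membrane, read 9.66 to 10.01 (median 9.93) in CON, 8.89, 9.67, 9.77, 9.95 and 9.50 in RVF+ and 9.57, 9.57, 9.62 and 9.52 in RVF. All RVF arrays lay below CON and RVF+ 8 was the lowest array, but neither difference passed (-0.33 ± 0.13 (SE) in RVF+, adjusted p = 0.0725, and -0.32 ± 0.14 (SE) in RVF, adjusted p = 0.143). Without RVF+ 8 the RVF+ difference was -0.16, and the RVF difference passed (adjusted p = 0.0114). The dim chains Lama1 and Lama3 did not pass in either comparison, with differences of -0.08 and 0.02 in RVF+ and -0.07 and 0.04 in RVF.

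**Figure D2:**
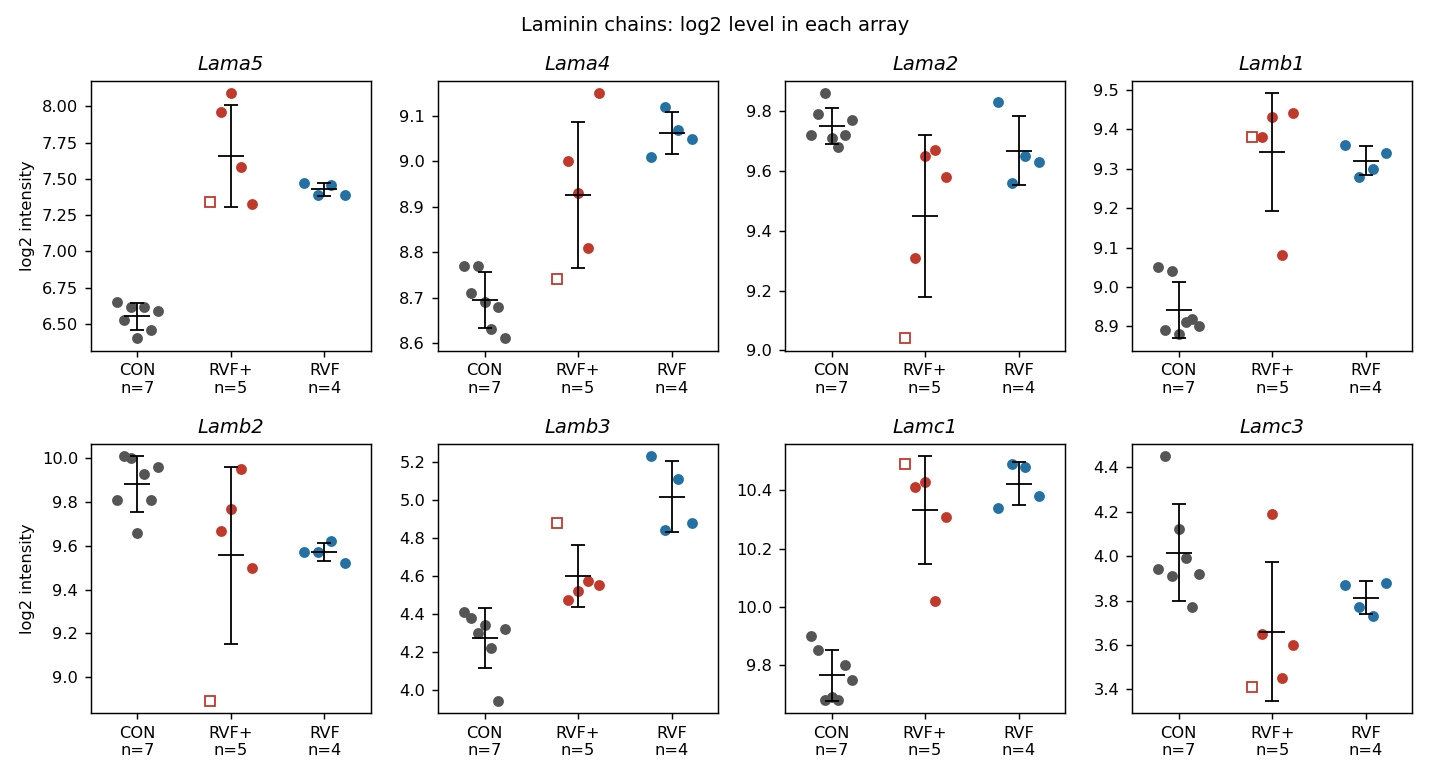
Log2 intensity of laminin chains in each array by group, with CON (n = 7), RVF+ (n = 5) and RVF (n = 4). Points are arrays, the open square is RVF+ 8, and bars are mean ± SD. For Lama5, Lamc1, Lamb1 and Lamb3 all RVF+ and RVF arrays sit above all CON arrays, and for Lama2 RVF+ 8 is the lowest.

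Among the receptors, the shared subunit rose and the muscle subunit fell. Itgb1 encodes the beta1 chain that pairs with the collagen, laminin and several fibronectin receptor alpha chains (probe set 10812021). It read 9.68 to 10.04 (median 9.78) in CON, 10.79, 10.17, 10.37, 10.22 and 10.29 in RVF+ and 10.50, 10.30, 10.36 and 10.30 in RVF. No RVF+ or RVF array overlapped with CON, and the rise was 1.47-fold in RVF+ (0.55 ± 0.10 (SE), adjusted p = 0.000466) and 1.46-fold in RVF (0.55 ± 0.11 (SE), adjusted p = 0.00148). RVF+ 8 was the highest array, and without it the RVF+ difference was 0.45 (adjusted p = 0.000352).

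Itga7 encodes the alpha7 chain, the laminin receptor alpha chain of heart and skeletal muscle (probe set 10893267). It read 8.71 to 9.15 (median 8.96) in CON, 8.27, 8.08, 7.89, 8.40 and 8.21 in RVF+ and 8.34, 8.40, 8.54 and 8.45 in RVF. Every RVF+ and RVF array lay below every CON array. CON exceeded RVF+ 1.70-fold (-0.77 ± 0.09 (SE), adjusted p = 1.08e-05) and RVF 1.42-fold (-0.50 ± 0.10 (SE), adjusted p = 0.00138). RVF+ 8 was not the lowest array, and the RVF+ difference without it was -0.79 (adjusted p = 1.03e-05). Beside this, 6 of the 10 cardiomyocyte markers fell in RVF+ and 0 in RVF, or 3 in RVF without RVF+ 8. Over all genes 13.6% were lower in RVF+ and 8.29% in RVF. In each comparison 1 of the 10 differences was positive, that of Myh7, the slow myosin heavy chain. It rose by 0.80 in RVF+ (adjusted p = 1.58e-05) and 0.87 in RVF (adjusted p = 1.96e-05). Myh6 was -1.34 in RVF+ (adjusted p = 0.00125) and -0.78 in RVF (adjusted p = 0.0745), with every array of both groups below CON. Tnni3 was -0.47 (adjusted p = 0.00991) and -0.31 (adjusted p = 0.124). These are the 3 markers with an unadjusted p under 0.05 in RVF. The mean level of the 10 markers per array spanned 11.55 to 11.68 (CON), 10.75 to 11.55 (RVF+, median 11.47) and 11.48 to 11.60 (RVF), and the 10.75 is RVF+ 8. Their part in the difference of Itga7 was not tested.

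Of the other laminin receptor subunits, Itga3 fell in both comparisons and Itga6 and Itgb4 passed in neither. Itga3, which pairs with beta1, read 6.32 to 6.82 (median 6.73) in CON, 6.62, 6.35, 6.34, 6.16 and 6.12 in RVF+ and 6.35, 6.14, 6.45 and 6.37 in RVF. The lowest CON arrays overlapped with both groups, and the difference was -0.34 ± 0.10 (SE) in RVF+ (adjusted p = 0.0201) and -0.33 ± 0.11 (SE) in RVF (adjusted p = 0.0494). The RVF+ call was lost without RVF+ 11 or RVF+ 12, and the RVF call was lost without any 1 of CON 1, 2, 3, 5 and 7, RVF+ 9 and 10, and RVF 13 to 16. Itga6, which pairs with beta1 or beta4, read 8.88 to 9.25 (median 8.92) in CON, 8.71, 8.91, 8.53, 8.60 and 9.16 in RVF+ and 9.37, 9.16, 9.46 and 9.06 in RVF. Of the RVF+ arrays 3 lay below the CON range, of the RVF arrays 2 lay above it, and neither difference passed (-0.21 ± 0.11 (SE), adjusted p = 0.157, and 0.27 ± 0.12 (SE), adjusted p = 0.131). Itgb4, the hemidesmosome subunit, did not pass, with 0.00 in RVF+ and -0.21 in RVF.

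Of the 4 collagen receptor alpha chains, 1 rose in RVF+ and 0 in RVF, where 0 had an unadjusted p under 0.05. The 1 chain is 25.0% of the class, beside 14.1% of all genes called higher in RVF+. Itga2, the dim chain of the alpha2 beta1 collagen receptor, read 4.67 to 5.50 (median 5.04) in CON, 5.34, 5.57, 5.64, 5.24 and 5.43 in RVF+ and 5.50, 5.09, 5.06 and 5.09 in RVF. The groups overlapped, and the RVF+ difference of 0.41 ± 0.12 (SE) passed (adjusted p = 0.0169) but was lost without RVF+ 10, with quantile normalization and with median centring. Itga1, the main collagen receptor chain of muscle and mesenchymal cells, did not pass, with 0.07 ± 0.07 (SE) in RVF+ (95% interval -0.08 to 0.22) and 0.08 ± 0.08 (SE) in RVF (95% interval -0.08 to 0.24). Itga10 and the fibroblast chain Itga11 were dim and did not pass, with 0.10 and -0.10 in RVF+ and -0.05 and -0.21 in RVF.

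The receptors for RGD proteins moved in both directions, with 3 of 6 higher and 1 lower in RVF+, and 2 higher and 1 lower in RVF. Itga5, the alpha chain of the main fibronectin receptor, read 8.52 to 8.74 (median 8.65) in CON, 9.25, 9.23, 9.44, 8.88 and 8.93 in RVF+ and 9.14, 9.07, 8.93 and 8.79 in RVF. Neither group overlapped with CON, and the rise was 1.41-fold in RVF+ (0.50 ± 0.10 (SE), adjusted p = 0.000788) and 1.27-fold in RVF (0.34 ± 0.10 (SE), adjusted p = 0.0285). The RVF call was lost with median centring and without CON 2, CON 6, RVF 13, RVF 14 or RVF 15. Itgb5, the beta chain of a vitronectin receptor with alphav, read 7.96 to 8.34 (median 8.08) in CON, 8.52, 8.86, 8.62, 8.89 and 8.43 in RVF+ and 8.68, 8.69, 8.66 and 8.71 in RVF. All arrays of both groups lay above CON, by 1.45-fold in RVF+ (adjusted p = 0.000252) and 1.47-fold in RVF (adjusted p = 0.000528). A second, dimmer probe set of Itgb5 gave 0.25 in RVF+ (adjusted p = 0.0762) and 0.40 in RVF (adjusted p = 0.0147).

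Itga8, a chain carried by fibroblasts and smooth muscle that binds fibronectin and nephronectin, read 4.85 to 5.76 (median 5.31) in CON, 7.02, 6.32, 5.79, 5.94 and 5.74 in RVF+ and 5.99, 5.95, 5.79 and 5.94 in RVF. RVF+ 8 was the highest and 1 RVF+ array lay within the CON range, and the RVF+ difference was 0.85 ± 0.19 (SE) (adjusted p = 0.00298) or 0.64 without RVF+ 8 (adjusted p = 0.00367). All RVF arrays lay above CON, but the difference of 0.61 ± 0.21 (SE) missed the threshold (adjusted p = 0.0511), and passed it without RVF+ 8 (adjusted p = 0.00528). Itgb8, the alphav partner that binds latent TGF-beta, read 6.78 to 7.25 (median 7.04) in CON, 6.62, 6.35, 6.23, 6.91 and 6.28 in RVF+ and 6.20, 6.85, 6.75 and 6.67 in RVF. It fell by 0.58 ± 0.13 (SE) in RVF+ (adjusted p = 0.00288) and by 0.43 ± 0.14 (SE) in RVF (adjusted p = 0.0387), with overlap between each group and CON. The RVF call was lost without CON 1, 2, 3, 4 or 7 or RVF 13, 15 or 16. Itgav, the common partner of these beta chains, read 8.93 to 9.13 (median 9.04) in CON, 9.41, 8.94, 9.01, 9.05 and 9.24 in RVF+ and 9.24, 9.21, 9.20 and 9.30 in RVF. All RVF arrays lay above CON and 3 RVF+ arrays lay within it, and neither difference passed, with 0.11 ± 0.08 (SE) in RVF+ and 0.22 ± 0.08 (SE) in RVF (adjusted p = 0.0855, or 0.0283 without RVF+ 8). The dim epithelial chain Itgb6 did not pass in either (-0.31 and -0.27). Of the 11 fibroblast markers, 7 rose in RVF+ and 6 in RVF and 0 fell, with a mean level per array of 8.31 to 8.54 (CON), 8.77 to 9.20 (RVF+) and 8.86 to 9.08 (RVF), and their part was not tested. Over all genes 14.1% were higher in RVF+ and 8.86% in RVF.

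**Figure D3:**
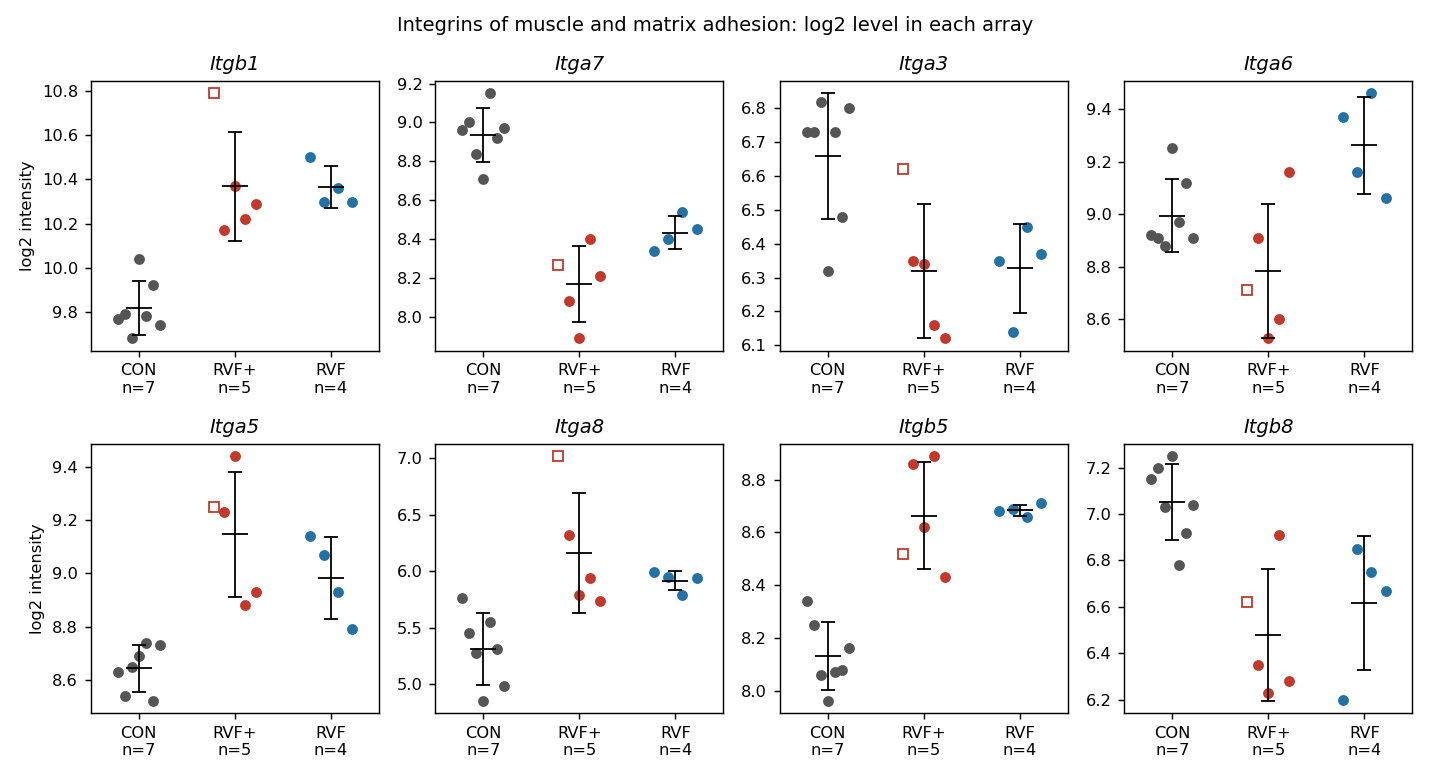
Log2 intensity of integrin subunits of muscle and matrix adhesion in each array by group (CON n = 7, RVF+ n = 5, RVF n = 4). Points are arrays, the open square is RVF+ 8, and bars are mean ± SD. Itgb1, Itga5 and Itgb5 lie above the CON range in every RVF+ and RVF array, and Itga7 lies below it.

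The leukocyte integrins were higher in array RVF+ 8 than in any other array for 6 of the 7 measured, the exception being Itgad. Itgb2, the beta2 chain that all leukocytes carry, read 5.59 to 5.83 (median 5.65) in CON, 8.85, 6.53, 6.72, 6.25 and 6.51 in RVF+ and 6.47, 6.64, 6.43 and 6.44 in RVF. No RVF+ or RVF array overlapped with CON, and the RVF+ rise was 2.41-fold (1.27 ± 0.31 (SE), adjusted p = 0.00465). Without RVF+ 8 it was 0.80 ± 0.09 (SE), a 1.74-fold rise (adjusted p = 4.43e-06). In RVF the difference was 0.80 ± 0.33 (SE) and did not pass (adjusted p = 0.107). The model fitted 1 spread over all groups, and without RVF+ 8 the RVF difference passed (adjusted p = 4.02e-06). Itga4, which pairs with beta1 or beta7 on leukocytes, read 4.77 to 5.18 (median 5.12) in CON, 6.96, 5.40, 5.22, 5.20 and 5.76 in RVF+ and 5.46, 5.74, 5.55 and 5.41 in RVF. No array of either group overlapped with CON, with 0.69 ± 0.22 (SE) in RVF+ (adjusted p = 0.0275) and 0.53 ± 0.24 (SE) in RVF (adjusted p = 0.15, or 0.00256 without RVF+ 8). The RVF+ value without RVF+ 8 was 0.38 (adjusted p = 0.0216), and the call was lost without CON 3 or RVF+ 12 and with only the groups compared in the fit.

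Itgam, the alphaM chain of macrophages and neutrophils, read 4.44 to 4.99 (median 4.64) in CON, 7.87, 4.61, 5.54, 4.70 and 5.48 in RVF+ and 5.29, 5.22, 5.06 and 5.51 in RVF. RVF+ 8 lay far above the other RVF+ arrays, the RVF arrays all lay above CON, and neither difference passed (0.98 ± 0.38 (SE), adjusted p = 0.0639, and 0.62 ± 0.41 (SE), adjusted p = 0.343). Without RVF+ 8 the RVF+ difference was 0.43 (adjusted p = 0.0668) and the RVF difference passed (adjusted p = 0.00945). The other leukocyte chains, Itgal and the dim Itgax, Itgad and Itgb7, did not pass in either comparison. Their differences ranged from -0.15 to 0.38 in RVF+ and from -0.06 to 0.22 in RVF. For Itgal RVF+ 8 read 7.30 and the other RVF+ arrays 5.43 to 5.99, beside 5.64 to 6.28 in CON, and for Itgax it read 6.63 and the others 4.34 to 5.38, beside 5.03 to 5.48 in CON. The sign of the RVF+ difference of Itgal and Itgax turned without RVF+ 8, to -0.22 and -0.16.

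Pan-leukocyte, macrophage, and T and NK cell markers had their highest mean level in the same array, while neutrophil and B cell markers did not. The mean level of the 8 pan-leukocyte markers was 6.09 to 6.32 in CON, 8.37 in RVF+ 8, 6.49 to 6.84 in the other RVF+ arrays and 6.64 to 6.77 in RVF. Of these, 6 rose in RVF+ and 0 in RVF (3 at an unadjusted p under 0.05), or 7 in RVF without RVF+ 8. For the 10 macrophage markers, the level was 6.50 to 7.02 in CON, 8.78 in RVF+ 8, at most 7.97 in the other RVF+ arrays and 7.22 to 7.72 in RVF, with 10 higher in RVF+ and 7 in RVF. Over all genes 14.1% were higher in RVF+ and 8.86% in RVF. The 7 neutrophil markers were all dim, at 3.72 to 4.91 in CON, 4.93 in RVF+ 8, up to 5.82 in the other RVF+ arrays and 4.18 to 5.06 in RVF. The 3 B cell markers were at 4.61 in RVF+ 8, the lowest of the RVF+ arrays, and up to 4.99 in the others. The part of these cells in the leukocyte integrin levels was not tested.

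**Figure D4:**
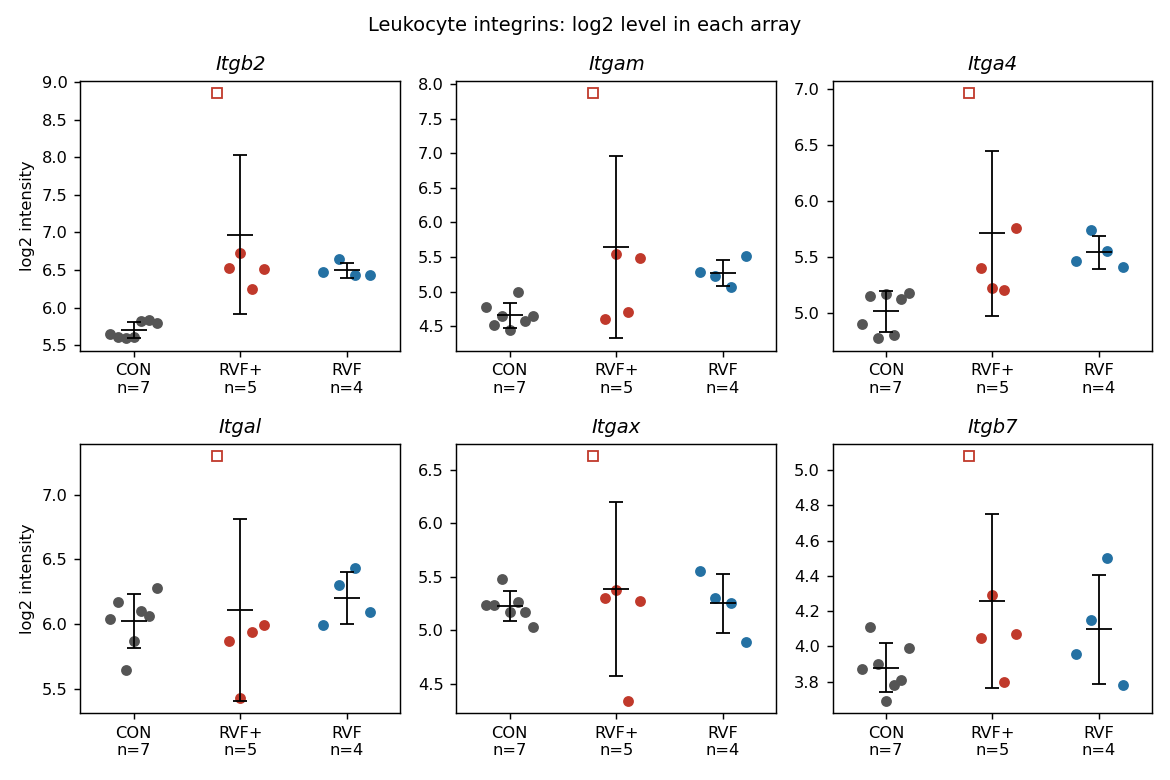
Log2 intensity of 6 leukocyte integrins in each array by group (CON n = 7, RVF+ n = 5, RVF n = 4). Points are arrays, the open square is RVF+ 8, and bars are mean ± SD. RVF+ 8 is the highest array in every panel, at 8.85 for Itgb2 and 7.87 for Itgam.

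**Figure D5:**
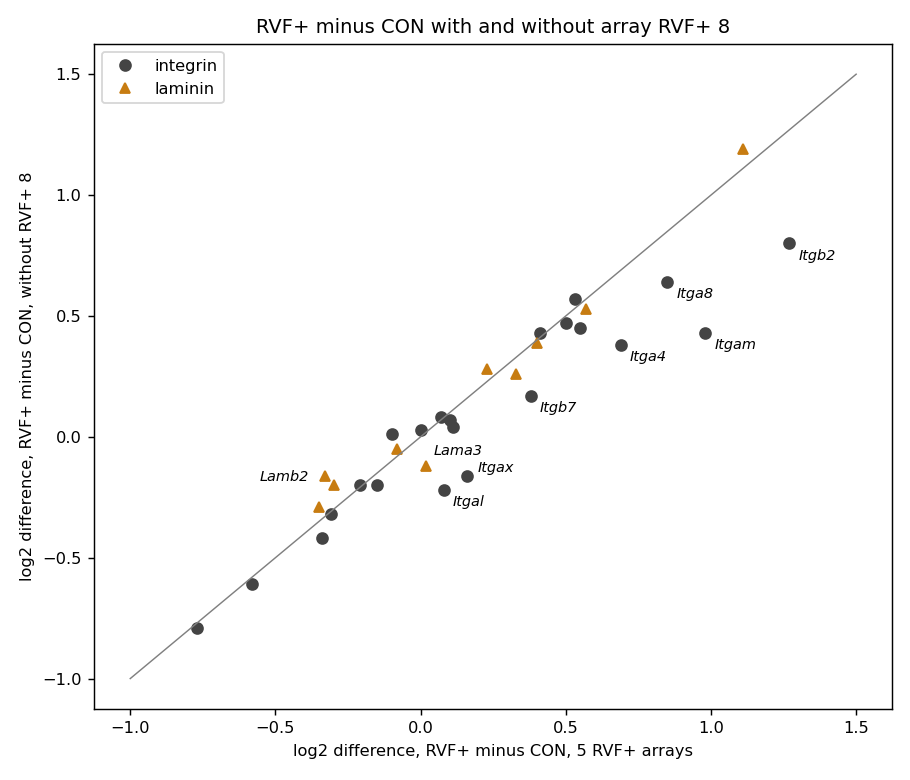
Log2 difference RVF+ minus CON of each of the 32 members with all 5 RVF+ arrays (x) and without RVF+ 8 (y), where the line marks equal values. Members named in the plot moved most, and Itgam moves from 0.98 to 0.43 while Itga7 goes from -0.77 to -0.79.

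Cell classes were assigned by gene, and whole tissue RNA does not show which cells made an RNA. Both genes classed as muscle (Itga7 and Lama2) fell in RVF+ and Itga7 in RVF. Of 2 fibroblast genes, 1 (Itga8) rose in RVF+. Of 7 leukocyte genes, 2 rose in RVF+ and 0 in RVF (2 at an unadjusted p under 0.05). Both vascular chains (Lama4 and Lama5) rose in each comparison. Without RVF+ 8, 1 muscle gene fell in RVF+, and 1 fibroblast and 3 leukocyte genes rose in RVF. Of the 15 genes of several cell types, 6 rose and 3 fell in RVF+, and 5 rose and 2 fell in RVF. By ligand class, the 4 laminin receptor chains (Itga3, Itga6, Itga7 and Itgb4) had 0 higher and 2 lower in each comparison. These class counts were not tested against the shares of all genes. Those were 14.1% higher and 13.6% lower in RVF+, and 8.86% and 8.29% in RVF. The RVF call of Itga3 was lost in 12 of 25 settings, and Itga6 was positive in RVF (0.27) without passing. Itgb1, the beta chain that pairs with Itga3, Itga6 and Itga7, was classed apart and rose in both comparisons. Of the 10 laminin chains, 5 rose in each comparison, and 2 fell in RVF+ and 0 in RVF. Of the 8 endothelial markers, 1 rose in RVF+ (Vwf, 2.12-fold, adjusted p = 0.000188, 5 of 5 arrays above CON), or 2 without RVF+ 8, and 7 of 8 differences were positive. In RVF 0 rose and 0 had an unadjusted p under 0.05, with a mean level of 7.98 to 8.17 (CON), 7.92 to 8.65 (RVF+) and 8.03 to 8.30 (RVF), and the part of endothelial cells in the vascular chains was not tested. Of 10 smooth muscle and pericyte markers, 4 rose in RVF+ and 3 in RVF.

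Between RVF+ and RVF no member passed the test: 0 of 32 were called in limma with Benjamini-Hochberg adjustment, with a background of 0.0% of all genes, and 3 members had an unadjusted p under 0.05, beside 1242 of all genes (7.20%). No setting tried called a member. The arrays of RVF+ lay all above or all below those of RVF for 0 members, with a background of 0.586% and 1.15% of genes. The lowest adjusted p was 0.403. Itga6 was lower in RVF+ by 0.48 ± 0.12 (SE) (unadjusted p = 0.00118), Lamb3 by 0.42 ± 0.11 (SE) (unadjusted p = 0.00147) and Itga7 by 0.26 ± 0.10 (SE) (unadjusted p = 0.0199). The 95% intervals of the members' differences were 0.33 to 1.84 wide, so a missed threshold does not show equal levels. The widest was that of Itgam, -0.55 to 1.29, and that of Itgb2 was -0.26 to 1.21.

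Genes on a list of integrin ligands and related secreted proteins, apart from laminins, mostly rose or did not pass. Of the 33 genes measured from this list of 39, 17 rose and 1 fell in each comparison, with a median difference of 0.39 in RVF+ and 0.40 in RVF. That is 51.5% higher and 3.03% lower. Over all genes the shares were 14.1% and 13.6% in RVF+, and 8.86% and 8.29% in RVF. Without RVF+ 8, 16 rose and 1 fell in RVF+. The 3 with the smallest p for RVF+ were Ccn2 (2.04 ± 0.16 SE, adjusted p = 4.77e-07), Tgfb2 (2.11 ± 0.17 SE, adjusted p = 5.35e-07) and Fn1 (1.73 ± 0.15 SE, adjusted p = 8.43e-07). For RVF they were Tgfb2 (2.56 ± 0.18 SE, adjusted p = 3.28e-07), Ccn2 (2.31 ± 0.17 SE, adjusted p = 3.28e-07) and Postn (3.25 ± 0.36 SE, adjusted p = 1e-05). Periostin (Postn), CCN2 and fibronectin (Fn1) are matrix proteins that bind integrins. Tgfb2 encodes a TGF-beta held latent in the matrix, and is counted as a gene of the list, not as an integrin ligand. These lists were chosen with results of these data known and are described, not tested.

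Genes for proteins of the adhesion plaque, which join integrins to actin, also rose more often than they fell. Of 35 measured, 15 rose and 5 fell in RVF+, and 14 rose and 1 fell in RVF, with medians of 0.25 and 0.23. Without RVF+ 8 the counts were 15 and 4 in RVF+, and 17 and 2 in RVF. The smallest p-values for RVF+ were in Tln1 (0.44 ± 0.06 SE, adjusted p = 2.87e-05), Actn1 (1.12 ± 0.16 SE, adjusted p = 5.67e-05) and Actn4 (0.48 ± 0.08 SE, adjusted p = 0.000283). For RVF they were in Tln1 (0.48 ± 0.06 SE, adjusted p = 3.66e-05), Flnc (0.62 ± 0.11 SE, adjusted p = 0.00108) and Cd151 (0.53 ± 0.12 SE, adjusted p = 0.00625). Melusin (Itgb1bp2), a muscle protein that binds the beta1 tail, was picked after its values were seen: it was -0.35 ± 0.09 (SE) in RVF+ (adjusted p = 0.00964) and -0.04 ± 0.10 (SE) in RVF (adjusted p = 0.831).

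The basement membrane and dystroglycan list, whose laminin binding complex sits beside integrins at the muscle cell surface, moved in both directions. Of 30 measured genes 6 rose and 10 fell in RVF+, and 9 rose and 4 fell in RVF, with medians of -0.06 and 0.04. Without RVF+ 8 the counts were 7 and 10 in RVF+, and 9 and 5 in RVF. The smallest p-values for RVF+ were in Sgcb (-0.52 ± 0.06 SE, adjusted p = 1.57e-05), Sgca (-0.82 ± 0.11 SE, adjusted p = 3.28e-05) and Sgcd (-0.64 ± 0.09 SE, adjusted p = 3.86e-05). For RVF they were in Col4a1 (0.70 ± 0.11 SE, adjusted p = 0.00027), Pxdn (0.51 ± 0.09 SE, adjusted p = 0.000569) and Sgcb (-0.38 ± 0.07 SE, adjusted p = 0.00081). Sarcoglycans stabilise dystroglycan at the muscle membrane, and collagen IV and peroxidasin build and cross-link the basement membrane. Dag1, dystroglycan itself and also picked after its values were seen, was -0.27 ± 0.06 (SE) in RVF+ (adjusted p = 0.00345) and -0.17 ± 0.07 (SE) in RVF (adjusted p = 0.0867).

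Itga2b, the platelet integrin chain, was read beside the platelet markers, of which 2 of 6 rose in RVF+ and 0 in RVF (1 at an unadjusted p under 0.05). It was 0.42 ± 0.13 (SE) in RVF+ (adjusted p = 0.0247) and 0.07 ± 0.14 (SE) in RVF (adjusted p = 0.784). Of the remaining marker lists, T and NK cells had 1 of 10 genes higher and 1 lower in each comparison, or 3 higher and 2 lower in RVF without RVF+ 8. With all arrays that is 10.0% each way. The shares over all genes were near this, at 14.1% higher and 13.6% lower in RVF+, and 8.86% and 8.29% in RVF. The same shares stand beside the other lists here. B cell markers had 1 of 3 higher in each, Schwann cell markers 1 of 4 higher and 1 lower in RVF+ and 1 lower in RVF (0 higher and 1 lower, and 2 lower, without RVF+ 8), atrial markers 0 of 4 called in RVF+ and 2 of 4 lower in RVF, and neutrophil (7) and adipocyte (6) markers 0 called and 0 at an unadjusted p under 0.05. Both atrial markers that fell in RVF had like values in RVF+ that did not pass, with Myl7 at -1.52 (unadjusted p = 0.0201) beside -1.93 in RVF, and Sln at -1.49 (unadjusted p = 0.0159) beside -1.86. All 10 cardiomyocyte markers, which check the tissue label, had a mean above the median level of all genes.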

How the data were processed

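RNA of 16 right ventricular wall samples was measured on Affymetrix arrays, grouped by the condition in their labels. The authors deposited a linear intensity for every probe set of every array. The submitters' processing notes name RMA, a method that subtracts background, equalises the arrays' distributions and summarises probes. Software and genome build: not given in the sources used here. RMA compresses differences of dim probe sets and can hide shifts shared by all genes.

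From the deposited intensity values the log2 was taken, and each gene was given the single-symbol probe set with the highest mean. Of 29214 probe sets, 18644 had 1 symbol in the platform annotation, 962 had several and 9608 were not listed. This left 17245 genes. No filter on low values was used, so all 32 members were tested. The number of arrays limits the precision.

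A limma (3.58.1, R 4.3.3) fit with 1 mean per group on all 16 arrays, with moderated variances, gave differences, standard errors and two-sided p-values, adjusted by Benjamini-Hochberg over all genes with a threshold of 0.05. The fit was tested on simulated data. The members and lists were chosen with earlier results of these data known. Every member could be named, those called in a comparison, with Itga7, Itgb1, Lama2, Lamb1 and Lamc1, in every sample, and of each list the 3 genes of smallest p. Values by array of other members (Itga6, Itgam, Itgav and Lamb2) are printed by choice after their values were seen. The alternatives were 9 other settings (probe set rule, dim gene filter, scaling, centring, moderation, array weights, groups in the fit and a minimum of 1.5-fold) and the removal of every array in turn.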

Additional observations from a re-analysis of the deposited data

Results flagged for a closer look

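Of the 96 combinations of a member and a group, 8 had 1 array at a distance from its group's others by Dixon's criterion, which chance gives in about 1 in 20 groups, and 4 of the 8 were RVF+ 8. In RVF+, the highest array was RVF+ 8 for Itgb2 (8.85, others 6.25 to 6.72), Itgam (7.87, others 4.61 to 5.54), Lama3 (4.49, others 3.68 to 3.88) and Lamb3 (4.88, others 4.47 to 4.57). For Lamb1, RVF+ 11 was the lowest RVF+ array at 9.08 (others 9.38 to 9.44). In CON, Itga10 was highest in CON 1 at 3.76 (others 3.40 to 3.55) and Lamb3 was lowest in CON 6 at 3.94 (others 4.22 to 4.41). In RVF, Itga2 was highest in RVF 13 at 5.50 (others 5.06 to 5.09). Itga10, Itga2, Lama3 and Lamb3 are dim genes.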

How the results depend on the processing

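No called member changed sign in any of the 25 settings, counting 9 alternatives and 16 arrays left out. Of 17 calls for RVF+, 4 (Itga7, Itga8, Itgb2 and Lama5) held in every setting in which the gene was tested, and of 11 for RVF, 3 (Lama5, Lamb3 and Lamc1). Leaving out the 1.5-fold minimum, 7 and 3 calls were lost in at least 1 setting. With a 1.5-fold minimum, 4 members were higher and 1 lower in RVF+, and 3 higher and 0 lower in RVF, by construction. Median centring gave 8 lower in RVF+. Fitting only the groups compared gave 13 higher in RVF and array weights gave 14. Leaving out 1 array gave 10 to 14 higher and 3 to 5 lower in RVF+, 7 to 13 higher and 1 to 4 lower in RVF, and 0 to 0 between RVF+ and RVF. The count of 13 came without RVF+ 8, the lows of 3 without CON 3, RVF+ 8 or RVF+ 9, and the lows of 1 without CON 1, CON 2, CON 3, CON 7, RVF 13, RVF 15 or RVF 16. Where these values moved, the cause was not tested. No paired analysis was possible because the labels give no pairing, batch or date. For the 11 dim members, signal near background limits what a difference can show.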

Other observations

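Genes whose names recall integrins but which are outside the rule were looked up after the values of the members were seen. Itgbl1, which encodes a secreted protein with repeats like those of integrin beta chains, was higher by 0.40 ± 0.09 (SE) in RVF+ (adjusted p = 0.00219, limma with Benjamini-Hochberg adjustment) and by 0.81 ± 0.09 (SE) in RVF (adjusted p = 1.43e-05), with 4 of 5 RVF+ and 4 of 4 RVF arrays above all CON arrays. RVF+ was below RVF by 0.41 ± 0.10 (SE), which did not pass (adjusted p = 0.403). Itgb3bp, a centromere protein named for its binding to beta3, was higher in RVF+ by 0.68 ± 0.21 (SE) (adjusted p = 0.0225) and differed by 0.45 ± 0.23 (SE) in RVF, which did not pass (adjusted p = 0.193), with 2 of 5 and 1 of 4 arrays above all CON arrays. Itgb1bp1, which binds the tail of the beta1 chain, passed in neither (0.17 ± 0.09 (SE), adjusted p = 0.155, and 0.10 ± 0.09 (SE), adjusted p = 0.514).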
